A study of Mus musculus with 27 samples.

Results

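The genes described are those of 3 families that cut or protect the extracellular matrix, in mature 3T3-L1 adipocytes given the antidiabetic drug rosiglitazone: the secreted ADAMTS proteases with the ADAMTS-like proteins, the matrix metalloproteinases (MMPs) and the tissue inhibitors of metalloproteinases (TIMPs). They were chosen by gene symbol, and 47 of the 18781 genes measured belonged: 18 Adamts, 5 Adamtsl, 20 Mmp and 4 Timp genes. A total of 18 of them had a mean log2 intensity of at least 5 over the 27 arrays, and the other 29 lay near the floor of the arrays. The members nearest that limit were Adamts4 (mean 4.86) and Adamts6 (4.70) below it, and Adamts17 (5.21) and Adamtsl4 (5.22) above it.

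3T3-L1 is a mouse preadipocyte line, and the labels describe cells differentiated into adipocytes with dexamethasone, insulin and 3-isobutyl-1-methylxanthine. The 9 groups, of 3 Affymetrix Mouse Gene 1.1 ST arrays each, were untreated cells at time 0 and cells kept in 1 µM rosiglitazone, dissolved in DMSO, for 8 lengths of time from 30 min to 48 h (30 min, then 1, 2, 6, 12, 24, 36 and 48 h). Rosiglitazone is a ligand of PPARγ, the master regulator of fat cell formation. The series' design text also speaks of cells given DMSO, but no sample used here carries that label, and whether the time 0 cells received the solvent is not stated. These arrays were the only control, so the drug, its solvent and time in culture cannot be told apart. The labels do not say whether replicates were separate cultures, so the p-values reflect how far these arrays scatter, which may be technical. All cells come from 1 cell line, which limits the cultures as a model of fat tissue.

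The values are log2 intensities per probe set, from 1.67 to 13.19, with array medians of 4.02 to 4.13. Differences are log2 changes ± SE from a limma model of all genes (n = 3 arrays per group), and a gene rose or fell where its adjusted p was below 0.05. The mean log2 level of 6 adipocyte markers (Adipoq, Fabp4, Plin1, Lpl, Cebpa and Cidec) was 11.42 to 11.49 on the untreated arrays. The 5 macrophage markers averaged 3.42 to 3.58 there and the 4 endothelial markers 2.97 to 3.12, below the array medians. The macrophage marker Cd68, however, lay above the array medians, at 4.82, 5.15 and 5.09 untreated, and was lower at 6 h and 12 h (-0.40 and -0.54, adjusted p = 0.0161 and 0.0012), when members fell. At 24 h, 36 h and 48 h, when members were also lower, Cd68 was not called. It read 4.76, 4.87 and 4.76 at 24 h, 5.23, 5.14 and 5.16 at 36 h, and 5.21, 5.36 and 5.09 at 48 h. Its part in their changes was not tested.

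ADAMTS and MMP enzymes hold a zinc ion at their active site and are made as inactive precursors, and many of them are activated when furin-like convertases remove the propeptide. Several ADAMTS enzymes cut the large proteoglycans versican and aggrecan, ADAMTS-like proteins lack the protease domain and sit on fibrillin microfibrils, and MMPs cut collagens and many other proteins. TIMPs block the active sites, and adipocytes need matrix remodelling, with Mmp14 as a known collagenase of growing fat.

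Most of the well-measured members fell during the course, and Mmp11 rose. Adamts1 and Adamts5 were lower by 2 h and lowest at 6 h, while Timp2, Mmp23, Adamts15 and Timp1 fell from 12 h or 24 h on. Of the 18 members with a mean of at least 5, 15 were called at 1 or more times: 13 were lower only, Mmp11 was higher only, and Adamtsl5 was lower at 6 h and higher at 48 h. These counts pool 8 comparisons, and the share of all genes called at 1 or more times was not computed. Adamts7, Adamts9 and Adamts12 were not called against untreated at any time. Over the whole course (limma's F-test on the 8 comparisons), 15 of the 18 were called, among them Adamts9 but not Timp4, where 66.3% of the 9087 genes with a mean of at least 5 were.

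No member was called by limma at 30 min or 1 h, when 0.099% and 1.64% of genes with a mean of at least 5 were. Without adjustment, 3 of the 18 had a limma p below 0.05 at 30 min and 1 at 1 h. The share of all genes below that unadjusted limit was not computed, so those counts have no background. At 2 h, 3 of the 18 fell and none rose, where 4.66% of genes with such a mean fell and 5.6% rose. The 6 h arrays added 4 more, so that 7 fell and none rose, against a background of 13.5% lower and 16.2% higher. Mmp11 joined as the one riser at 12 h, beside 8 that fell (15.3% lower, 17.7% higher among genes). By 24 h, 12 fell and 1 rose (16.9% lower, 19.1% higher). The counts were 11 lower and 1 higher after 36 h (16.6% and 19.6% among genes), then 11 lower and 2 higher after 48 h (18% and 21.6%). Adamtsl4 is among those lower from 12 h on, though its arrays were then below 5. It passed the limit on the mean through its earlier arrays. Over all 47 members, 13 fell and 1 rose at 24 h, against 10.5% and 10.1% of all genes. The median change of the 18 members was -0.40 at 24 h and -0.47 at 48 h, against 0.026 and 0.034 for all genes with a mean of at least 5. Between treated groups, 5 of the 18 differed between 6 h and 2 h, 9 between 24 h and 6 h and 12 between 48 h and 6 h, where 16.7%, 21.1% and 32.9% of genes with a mean of at least 5 did. In bulk RNA, fewer cells of a type and less RNA per cell cannot be told apart.

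**Figure D1:**
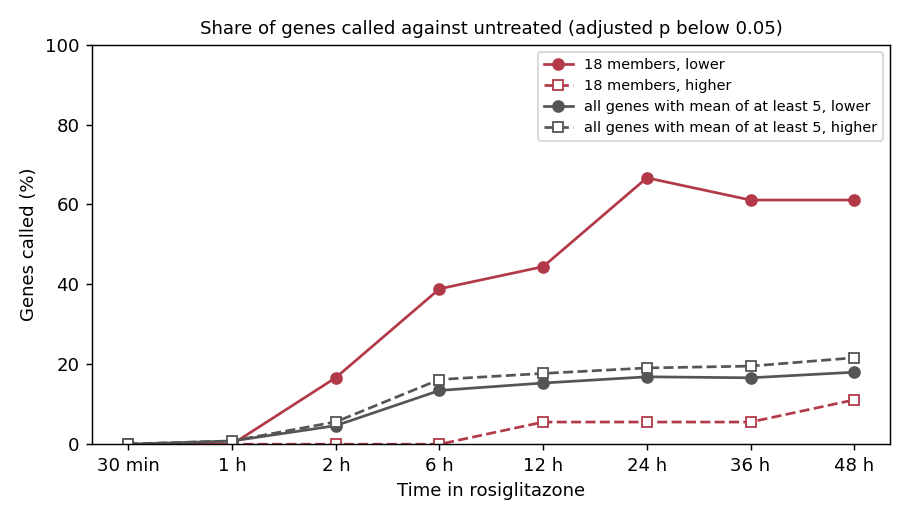
Percentage of genes called lower (filled circles) or higher (open squares) than untreated by limma at each time, for the 18 members with a mean of at least 5 (red) and for all 9087 genes with such a mean (grey). The share of members called lower stands above that of all genes from 2 h on, and the share called higher stands below it.

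**Figure D2:**
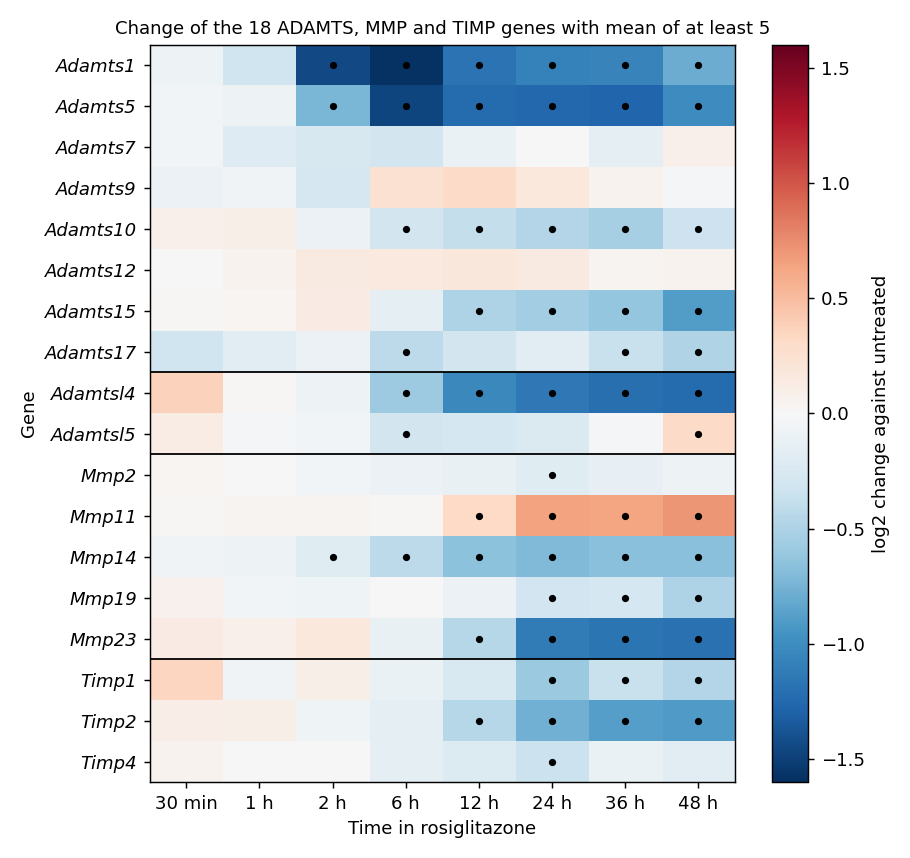
Log2 change against untreated (colour) of the 18 members with a mean of at least 5, in rows by family, at the 8 times in columns, where a black dot marks an adjusted p below 0.05. Adamts1 and Adamts5 darken at 2 h and 6 h, most other falling genes from 12 h on, and Mmp11 is the red row with dots from 12 h to 48 h.

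Promoter sequence from RefSeq (GRCm38.p6) was found for 32 of the 47 members and 12 of the 18 well-measured ones. For these 12, the 250 bases before the gene start were searched. The windows of Adamts1, which had the widest change of all members, of Mmp14 and Timp2, whose proteins work together at the cell surface, and of Mmp11, the member that was called higher only, are shown, 5′ to 3′, with motif matches in capitals. They lie at chr16:85803114-85803363 (minus strand), chr14:54431348-54431597 (plus), chr11:118355412-118355661 (minus) and chr10:75932503-75932752 (minus), in that order.
Adamts1: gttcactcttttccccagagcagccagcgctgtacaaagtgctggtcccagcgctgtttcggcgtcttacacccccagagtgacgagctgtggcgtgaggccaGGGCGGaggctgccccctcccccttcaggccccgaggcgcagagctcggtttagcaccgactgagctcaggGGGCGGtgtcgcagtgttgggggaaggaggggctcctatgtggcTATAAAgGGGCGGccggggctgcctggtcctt
Mmp14: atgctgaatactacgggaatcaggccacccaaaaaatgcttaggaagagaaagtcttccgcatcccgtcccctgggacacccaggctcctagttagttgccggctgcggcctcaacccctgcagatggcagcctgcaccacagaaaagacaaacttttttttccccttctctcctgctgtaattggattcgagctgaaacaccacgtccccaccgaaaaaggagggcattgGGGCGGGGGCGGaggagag
Timp2: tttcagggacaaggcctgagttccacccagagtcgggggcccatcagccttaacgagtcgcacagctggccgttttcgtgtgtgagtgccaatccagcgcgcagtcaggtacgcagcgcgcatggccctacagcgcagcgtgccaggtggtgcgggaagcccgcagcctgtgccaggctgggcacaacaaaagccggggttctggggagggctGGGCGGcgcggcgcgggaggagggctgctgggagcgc
Mmp11: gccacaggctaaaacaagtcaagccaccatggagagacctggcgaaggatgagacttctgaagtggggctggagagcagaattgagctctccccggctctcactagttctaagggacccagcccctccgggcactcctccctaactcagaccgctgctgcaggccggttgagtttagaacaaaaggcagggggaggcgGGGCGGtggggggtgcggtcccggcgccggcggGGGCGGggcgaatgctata
The motifs searched, on both strands, were the AP-1 site TGANTCA, the cyclic AMP response element TGACGTCA, the nuclear receptor half-site AGGTCA, its DR1 repeat (2 half-sites with 1 base between them, so each match also holds the half-site), the TEAD motif GGAATG, the GC box GGGCGG, the TATA box TATAAA and the E-box CACGTG. The capitals in all 4 windows are GC boxes, except that Adamts1 also holds TATAAA, starting 32 bases before the gene start, with 1 base between it and a GC box. TATAAA was found in 13% of 27025 promoters of this length, and the GC box in 32.9% of them, in 63% of 7411 promoters of genes with a mean of at least 5, and in 8 of 13 windows of the members (Mmp23 has 2). The half-site was found in 1 of the 13 windows, that of Adamtsl5, which holds 2, against 13.8% of all promoters. AP-1, the cyclic AMP response element and DR1 were found in 0 of the 13, against 6.87%, 1.62% and 0.037% of all promoters. Among promoters of genes with a mean of at least 5 those shares were 3.76%, 2.87% and 0.0135%, and TATAAA was in 5.79% and the half-site in 10.2%. The TEAD motif was in 1 of the 13 windows, that of Timp1, against 12.6% of all promoters and 10.1% of those of genes with such a mean. The E-box was in 1, that of Adamts17, against 6.05% and 9.11%. A match is a run of letters and no measured binding site.

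Among the proteoglycan-cutting enzymes, Adamts1 and Adamts5 fell first and furthest. Both cut versican and aggrecan, and Adamts5 is the main aggrecanase of mouse cartilage. The genes are neighbours on chromosome 16, with 1 annotated gene and 0 protein-coding genes between them in GRCm38.p6.

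Adamts1 read 8.44, 8.55 and 8.62 on the untreated arrays, 7.28, 7.06 and 6.95 at 2 h, and 6.95, 6.87 and 7.03 at 6 h. Every array from 1 h on lay below every untreated array. The change was -0.31 ± 0.11 at 1 h (adjusted p = 0.275), -1.44 ± 0.11 at 2 h and -1.59 ± 0.11 at 6 h (adjusted p = 4.41e-09 and 5.3e-10), a level 3.00-fold below untreated. A total of 90.9% of the widest log2 change was present at 2 h. The level then came partly back: the arrays at 48 h read 7.83, 7.67 and 7.72, above all arrays at 6 h and still below untreated. From 6 h to 48 h Adamts1 rose by 0.79 ± 0.11 (adjusted p = 1.21e-05), and its change against untreated at 48 h was -0.80 ± 0.11 (adjusted p = 5.74e-06).

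Adamts5, the aggrecanase next to it, read 8.70, 8.62 and 8.58 on the untreated arrays, 7.97, 8.03 and 7.71 at 2 h, 7.11, 7.17 and 7.21 at 6 h, and 7.76, 7.51 and 7.62 at 48 h. The arrays at 2 h lay between those of untreated and 6 h, without overlap. The change was -0.73 ± 0.093 at 2 h (adjusted p = 7.75e-06), 49.6% of the widest, and -1.47 ± 0.093 at 6 h (adjusted p = 1.3e-10). A further fall of -0.74 between 2 h and 6 h passed the test (adjusted p = 8.66e-06), while the step of -0.14 for Adamts1 did not. At 12 h, 24 h and 36 h Adamts5 stayed 1.23 to 1.27 below untreated on the log2 scale, and it rose by 0.47 from 6 h to 48 h (adjusted p = 0.000638).

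The difference between the 2 genes on the same array, Adamts1 minus Adamts5, lay between -0.25 and 0.04 on the untreated arrays and between -0.97 and -0.69 at 2 h. It had shifted by -0.71 at 2 h, with no overlap between the groups, and by -0.12 at 6 h, where they overlapped. With 3 against 3 arrays an exact permutation test cannot go below p = 0.1, so it cannot decide whether the 2 genes differ in timing.

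The other versican-cutting enzymes took different courses. Adamts15 read 6.64, 6.46 and 6.58 untreated, 6.10, 5.91 and 6.22 at 12 h, and 5.75, 5.81 and 5.45 at 48 h. It was not called against untreated before 12 h, and all arrays from 12 h on lay below the untreated ones. Its change was -0.49 ± 0.085 at 12 h and -0.89 ± 0.085 at 48 h (adjusted p = 0.000139 and 1.4e-08), and it fell by 0.74 between 6 h and 48 h (adjusted p = 6.74e-07), where Adamts1 and Adamts5 rose. Adamts15 neighbours Adamts8 on chromosome 9 with 0 genes between them. Adamts8 lay near the floor (mean 4.60) and was called at 48 h alone (-0.32 ± 0.11, adjusted p = 0.0414). Its other probe set (mean 3.41) changed by -0.03 at 48 h.

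Adamts9, another versican-cutting enzyme, read 9.85, 9.58 and 9.68 untreated, 9.48, 9.38 and 9.44 at 2 h, and 10.13, 9.87 and 10.01 at 12 h. None of its changes against untreated passed the test, with -0.27 ± 0.11 at 2 h and 0.30 ± 0.11 at 12 h (adjusted p = 0.185 and 0.0596). It rose between 2 h and 6 h by 0.52 (adjusted p = 0.00309). Dropping replicate 3 from all groups ended that call (adjusted p = 0.12). Over the course it was called by the F-test (adjusted p = 0.00276). The array has 6 probe sets for Adamts9, and each was below untreated at 2 h (-0.27 to -0.09) and above it at 12 h (0.21 to 0.40). With their mean in place of 1 probe set, the change at 12 h passed the test (0.33, adjusted p = 0.0128). Adamts4, an aggrecanase near the floor, read 4.98, 4.98 and 4.92 untreated and 4.53, 4.62 and 4.34 at 24 h (-0.47 ± 0.088, adjusted p = 0.0003), and was not called at other times.

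Among the members tied to fibrillin microfibrils, Adamtsl4 fell most. It read 5.74, 5.79 and 5.77 untreated, 5.29, 5.18 and 5.08 at 6 h, and 4.36, 4.55 and 4.72 at 48 h. The arrays at 6 h and at every later time lay below all untreated ones, and from 12 h on they were below 5, close to the floor, where a log2 change understates the fold. Its change was -0.58 ± 0.097 at 6 h and -1.23 ± 0.097 at 48 h (adjusted p = 0.000103 and 5.84e-10), a level 2.34-fold below untreated. At 30 min the arrays read 6.19, 6.20 and 6.00, above all untreated arrays, but the difference of 0.36 was not called (adjusted p = 0.293).

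Adamtsl5, which also binds fibrillin, moved in both directions. It read 5.85, 5.85 and 5.76 untreated, 5.54, 5.62 and 5.44 at 6 h, and 5.98, 6.12 and 6.29 at 48 h. The change was -0.29 ± 0.10 at 6 h and 0.31 ± 0.10 at 48 h (adjusted p = 0.0478 and 0.0252). Leaving out any 1 of the 6 arrays compared ended the call at 6 h, and leaving out untreated replicate 3 or 48 h replicate 2 or 3 ended that at 48 h. The rise of 0.60 from 6 h to 48 h was called in each of the 16 alternatives (adjusted p = 9.06e-05).

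Adamts10, which acts on fibrillin, read 6.29, 6.04 and 6.21 untreated and 5.57, 5.65 and 5.73 at 36 h. It was lower from 6 h on, with -0.53 ± 0.082 at 36 h (adjusted p = 2.67e-05), and the groups did not overlap. Its calls at 6 h (-0.30), 12 h (-0.38) and 48 h (-0.33) ended in 5, 1 and 1 of 16 alternatives, the first of them without untreated replicate 1 or 6 h replicate 1. Adamts17, a relative of Adamts10, was lower at 3 times, 6 h, 36 h and 48 h (-0.48 ± 0.12 at 48 h, adjusted p = 0.00431). That rested on 1 of its 5 probe sets: the change at 48 h was -0.12 to 0.12 in the others, and -0.089 (adjusted p = 0.363) for the mean of all.

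Adamts7 and Adamts12, which cut the cartilage protein Comp, were not called against untreated. Adamts7 stayed within -0.29 and 0.082 of untreated and Adamts12 within -0.0024 and 0.18. Adamts7 was higher at 48 h than at 6 h (0.37, adjusted p = 0.0145), although without 6 h replicate 3 or 48 h replicate 3 that call ended.

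**Figure D3:**
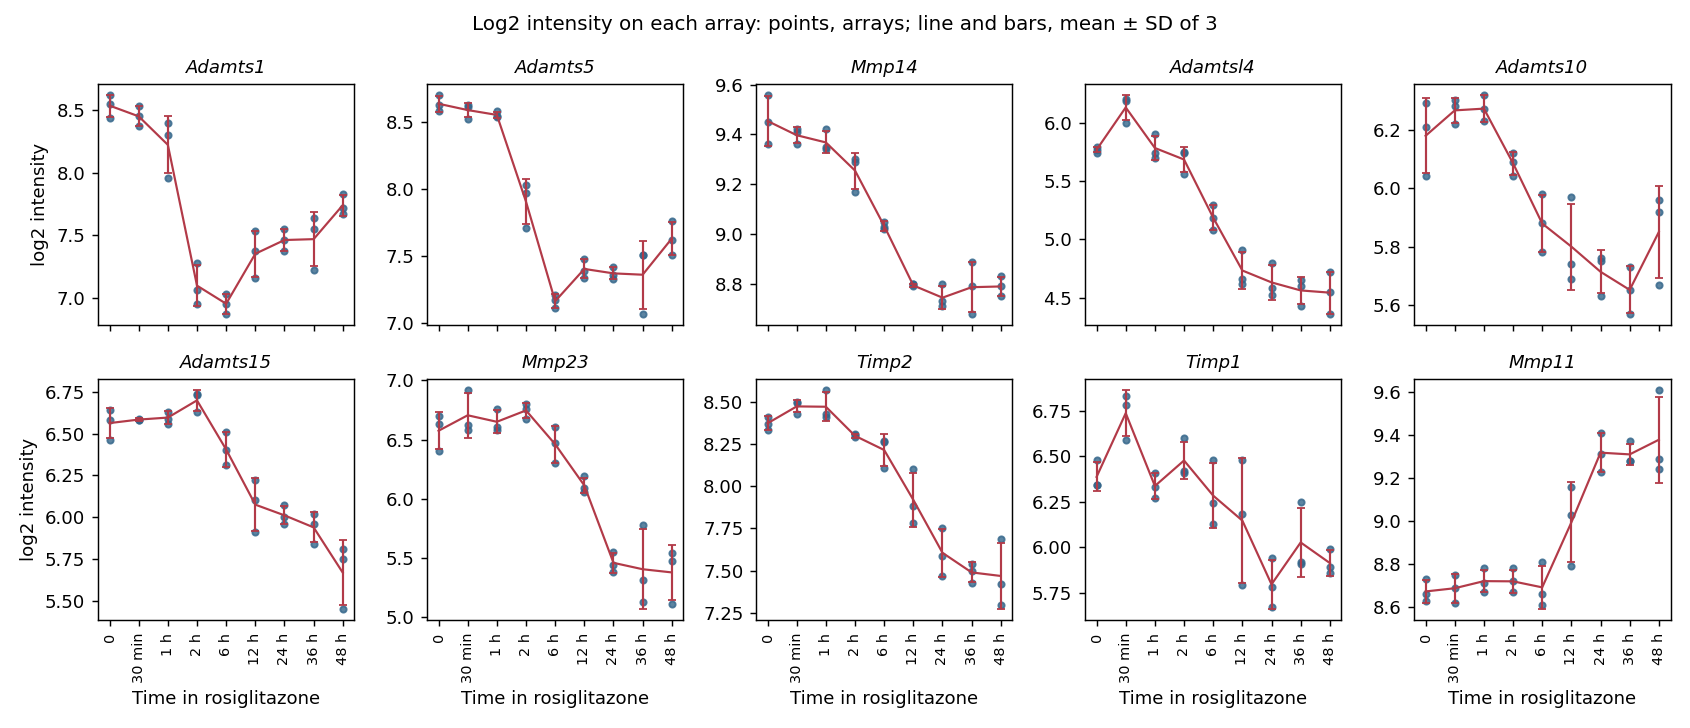
Log2 intensity (vertical axis, scaled for each gene) of the 10 members with a mean of at least 5 that were called with a change of at least 0.5 on the log2 scale, on each array (blue points) from untreated (0) to 48 h, with mean ± SD of 3 arrays in red. Adamts1 and Adamts5 drop between 1 h and 6 h and come partly back, Mmp23, Timp2 and Adamts15 drop later, and Mmp11 climbs from 8.67 at time 0 to 9.38 at 48 h.

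Among the MMPs, the membrane-bound collagenase Mmp14 fell steadily to a plateau. It read 9.36, 9.56 and 9.45 untreated, 9.02, 9.05 and 9.03 at 6 h, and 8.80, 8.71 and 8.73 at 24 h. The groups did not overlap at 2 h or later. The change was -0.42 ± 0.060 at 6 h and -0.71 ± 0.060 at 24 h (adjusted p = 1.74e-05 and 3.19e-09), and it stayed between -0.66 and -0.71 from 12 h to 48 h. The earlier call at 2 h (-0.20, adjusted p = 0.0499) ended in 11 of 16 alternatives. Mmp2, the gelatinase whose precursor Mmp14 activates on the cell surface with Timp2 as the bridge, was lower at 24 h alone, by 0.20 (adjusted p = 0.00537). Its 3 arrays read 10.00, 9.97 and 9.99 untreated and 9.78, 9.79 and 9.79 at 24 h. That call ended when each array was centred on its median (-0.12, adjusted p = 0.105). It also ended without replicate 1, replicate 2 or replicate 3 of every group.

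Of the MMPs, Mmp11 alone was called higher than untreated. Mmp11, also known as stromelysin-3, is activated inside the cell by furin and can cut collagen VI. It read 8.63, 8.73 and 8.66 untreated, 8.81, 8.66 and 8.61 at 6 h, 9.41, 9.23 and 9.31 at 24 h, and 9.24, 9.61 and 9.29 at 48 h. The groups overlapped up to 6 h and not from 12 h on. The change was 0.019 at 6 h (adjusted p = 0.93), 0.32 ± 0.088 at 12 h and 0.70 ± 0.088 at 48 h (adjusted p = 0.0108 and 1.06e-06), a level 1.63-fold above untreated. The step from 6 h to 24 h was 0.63 (adjusted p = 2.48e-05). The call at 12 h ended without 12 h replicate 3.

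Mmp23, a membrane-anchored MMP, fell late and by the widest margin among the MMPs. It read 6.40, 6.63 and 6.70 untreated, 6.47, 6.61 and 6.30 at 6 h, 6.06, 6.09 and 6.19 at 12 h, and 5.38, 5.44 and 5.55 at 24 h. The 6 h arrays overlapped the untreated ones and those of 12 h and later did not. It changed by -0.46 ± 0.13 at 12 h (adjusted p = 0.0125), -1.12 ± 0.13 at 24 h and -1.20 ± 0.13 at 48 h (adjusted p = 4.44e-07 and 1.23e-07), and the step from 6 h to 24 h was -1.002 (adjusted p = 8.68e-06). Without untreated replicate 3 the call at 12 h ended. Mmp19, a secreted MMP of basement membranes, was lower at 24 h, 36 h and 48 h. It read 8.33, 8.44 and 8.42 untreated and 8.09, 7.73 and 7.91 at 48 h (-0.49 ± 0.092, adjusted p = 0.000244). The 36 h arrays overlapped the untreated ones, and the calls at 24 h and 36 h ended with arrays centred on their median and without untreated replicate 2 or 3.

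The other 15 MMPs lay near the floor, and none of them was called against untreated. Between treated groups, Mmp13 was higher at 24 h than at 6 h (0.32 ± 0.11, adjusted p = 0.0488), and Mmp16 and Mmp17 were higher at 48 h than at 6 h (0.22 and 0.39, adjusted p = 0.0412 and 0.0236), where 1.23% and 4.69% of genes with a mean below 5 were higher. The 15 include all 9 MMP members on chromosome 9: Mmp1a, Mmp1b, Mmp3, Mmp7, Mmp8, Mmp10, Mmp12, Mmp13 and Mmp20, among them the collagenases, stromelysins and matrilysin. The gelatinase Mmp9 (mean 3.60), which macrophages and neutrophils make in quantity, changed by -0.28 to -0.010. Mmp16, Mmp17, Mmp21, Mmp24 and Mmp25 were the rest. A value near the floor sets no order and does not show that a gene is off.

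Of the 4 inhibitors, Timp1 and Timp2 were called lower at several times, Timp4 at 24 h alone and Timp3 at none. Timp2 read 8.37, 8.41 and 8.33 untreated, 7.78, 8.10 and 7.88 at 12 h, and 7.69, 7.30 and 7.42 at 48 h. All arrays from 2 h on lay below the untreated ones, and the change passed the test from 12 h on. The change was -0.16 at 6 h (adjusted p = 0.26), -0.45 ± 0.088 at 12 h and -0.90 ± 0.088 at 48 h (adjusted p = 0.00047 and 2.09e-08), and from 6 h to 48 h Timp2 fell by 0.75 (adjusted p = 9.68e-07). At 6 h, when Mmp14 had reached 59.5% of its widest change, Timp2 had reached 17.4%; whether these courses differ was not tested.

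Timp1, a broad inhibitor induced by serum and cytokines, read 6.34, 6.48 and 6.34 untreated, 6.83, 6.78 and 6.59 at 30 min, and 5.67, 5.78 and 5.94 at 24 h. The 30 min arrays lay above and the 24 h arrays below all untreated ones. The difference of 0.35 at 30 min was not called (adjusted p = 0.488), and the fall at 24 h was (-0.59 ± 0.12, adjusted p = 0.000879). Timp1 was also lower at 36 h and 48 h (-0.36 and -0.47, adjusted p = 0.0381 and 0.00574), and leaving out any 1 untreated array ended the call at 36 h. Timp4, the inhibitor known from adipose tissue and heart, was lower at 24 h alone (-0.34 ± 0.11, adjusted p = 0.0263), with arrays of 7.27, 7.12 and 6.96 untreated against 6.59, 6.80 and 6.95 at 24 h. That call ended without replicate 1 or 2 of either group and with arrays centred on their median (-0.26, adjusted p = 0.0731). Timp3, which is bound to matrix, lay near the floor (mean 4.05) and was not called.

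Among the 29 members near the floor, 4 were called against untreated, in 6 comparisons, all lower. There was 1 lower call at 2 h, 12 h, 24 h and 48 h and 2 at 36 h, where 1.2%, 3.81%, 4.59%, 5.21% and, at 36 h, 4.81% of genes with a mean below 5 fell. Besides Adamts4 and Adamts8 they were Adamts18 (-0.34, -0.30 and -0.28 at 2, 12 and 36 h) and the von Willebrand factor protease Adamts13 (-0.25 at 36 h, adjusted p = 0.041). The other 25 were the 15 MMPs, Timp3, Adamts3 and Adamts14 (which trim procollagens), Adamts6, Adamts16, Adamts19, Adamts20, Adamtsl1, Adamtsl2 and Adamtsl3. All changes of the 29 lay between -0.47 and 0.31. By the F-test, Adamts4, Mmp13, Adamtsl3 and Mmp17 were called among the 29. Of all 18781 genes 7613 were called (40.5%), and 6025 of these were among the 9087 with a mean of at least 5 (66.3%). The remaining calls lay among the 9694 genes with a mean below 5, where the share was therefore lower than 40.5%. The 4 calls among the 29 are not read as a result about these members. Adamts2, Mmp15, Mmp27 and Mmp28 were not analysed here, for want of a probe set with that symbol alone.

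Other matrix proteolysis genes are described from 5 lists of activators, inhibitors, substrates and related proteases, by their counts and the 4 genes with the smallest F-test p in each. At 48 h, 12.6% of all genes rose and 11.4% fell, and each list's counts stand beside those shares. Of 12 measured activators, surface inhibitors and clearance receptors, 4 of them with a mean below 5, 1 rose and 4 fell at 48 h. Furin, the convertase that activates many members, read 8.01, 8.21 and 8.22 untreated and 7.70, 7.55 and 7.70 at 12 h (-0.49 ± 0.086, adjusted p = 0.000146), and was lower from 6 h on without overlap at 12 h. Lrp1, the endocytic receptor that clears Adamts5, several MMPs and TIMPs, changed by -0.60 ± 0.065 at 12 h (adjusted p = 3.12e-07). Bsg, an inducer of MMPs, rose by 0.33 ± 0.062 at 48 h (adjusted p = 0.000197), and the proteoglycan Sdc1 changed by -0.27 (adjusted p = 0.0164).

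Of 17 measured substrates and cofactors of ADAMTS enzymes, 2 rose and 8 fell at 48 h. Vcan, which encodes versican, read 9.84, 9.70 and 9.86 untreated and 8.84, 8.68 and 8.42 at 48 h, a change of -1.15 ± 0.11 (adjusted p = 1.67e-08). It was first called at 6 h (-0.35, adjusted p = 0.0283), 1 time point after Adamts1 and Adamts5. Comp, near the floor (mean 3.98), changed by -1.11 ± 0.12 and fibronectin (Fn1) by -0.56 ± 0.078 (adjusted p = 7.38e-08 and 5.06e-06). Thbs1, thrombospondin-1, rose at 1 h (0.57, adjusted p = 0.0145), was lower at 6 h (-0.53, adjusted p = 0.00311) and was not called at 48 h.

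Of the 12 genes of the ADAM family, most of them membrane-anchored and some without protease activity, 1 rose and 4 fell at 48 h. Adam12 read 7.55, 7.48 and 7.73 untreated and 8.42, 8.44 and 8.50 at 12 h (0.87 ± 0.12, adjusted p = 7.11e-06), and was higher from 6 h to 48 h. Adam23, which lacks protease activity, changed by -0.80 ± 0.059 at 48 h (adjusted p = 2.1e-10), and Adam19 and Adam9 by -0.29 and -0.27 (adjusted p = 0.0216 and 0.00871). Of 10 lysosomal and serine proteases, 1 rose and 4 fell at 48 h: the secreted protease Htra3 rose by 0.70 ± 0.094 (adjusted p = 3.28e-06), and the cathepsin genes Ctsk and Ctsl changed by -0.83 ± 0.12 and -0.34 ± 0.051 (adjusted p = 8.07e-06 and 1.45e-05). The serine protease Prss23 (mean 4.59) changed by -0.64 ± 0.11 (adjusted p = 6.72e-05), and Ctsd was the other gene of the list that fell. Of 7 plasminogen system genes, 6 were near the floor and 3 fell at 48 h. These were the plasminogen receptor Plgrkt (-0.49, adjusted p = 7.21e-05) and the activators Plat (-0.42, adjusted p = 0.00692) and Plau (-0.35, adjusted p = 0.00515), while the urokinase receptor Plaur (0.03) was not called.

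**Figure D4:**
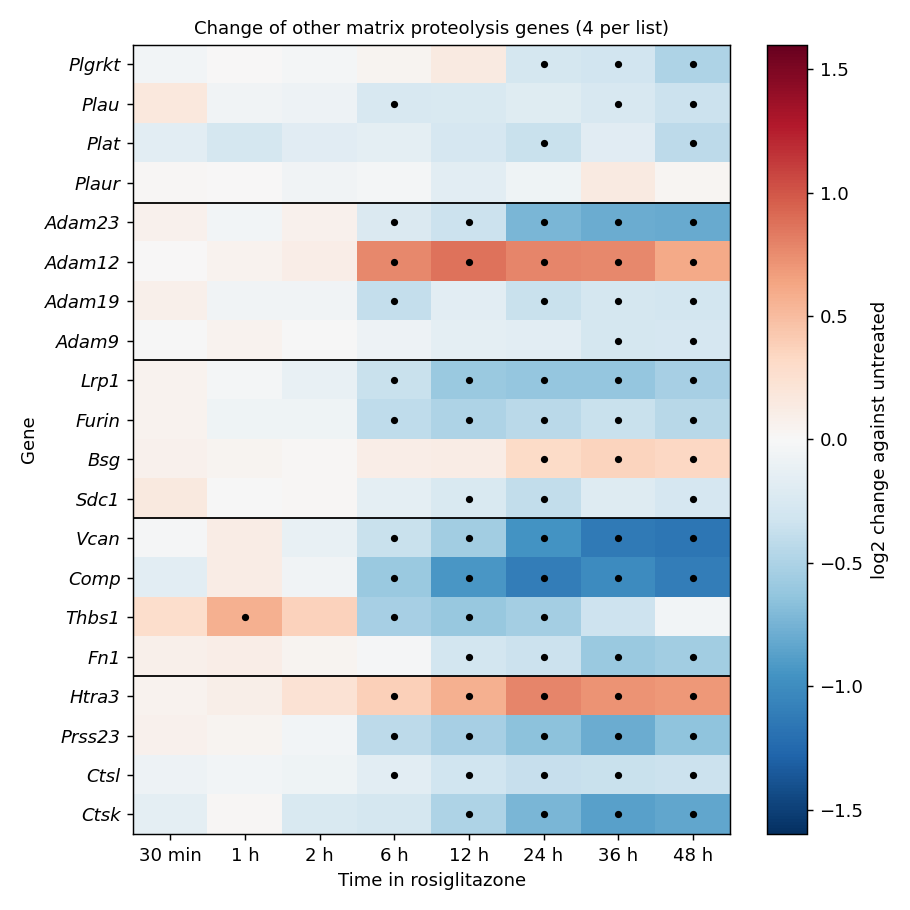
Log2 change against untreated (colour) at the 8 times for the 4 genes with the smallest F-test p in each of 5 lists, from top to bottom the plasminogen system, ADAM proteases, activators and inhibitors, ADAMTS substrates, and lysosomal and serine proteases. Black dots mark an adjusted p below 0.05; Vcan and Comp are the darkest blue rows, with changes of -1.15 and -1.11 at 48 h, and Adam12 and Htra3 are the reddest.

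Several markers of preadipocytes and fibroblasts also fell during the course. Of 7 measured (Dlk1, Pdgfra, Pdgfrb, Thy1, Cd34, Acta2 and Col1a1), 1 fell at 2 h, 3 fell at both 6 h and 12 h, and between 4 and 6 fell at each later time, while no marker rose. Of all genes, 2.87% fell at 2 h, 8.18% at 6 h, 9.38% at 12 h and 10.5% to 11.4% at the later times. The mean log2 level of the 7 markers was 8.24 to 8.29 untreated, 7.93 to 7.97 at 6 h and 7.59 to 7.66 at 48 h. From 6 h to 48 h, while this mean went down, 7 of the 18 members with a mean of at least 5 fell, among them Mmp23 and Timp2 (-1.08 and -0.75). Another 5 rose, among them Adamts1 and Adamts5 (0.79 and 0.47). Of all genes with a mean of at least 5, 32.9% differed between these times. The median change of the 7 at 48 h was -0.31, and Cd34 lay near the floor (2.96, 3.02 and 3.12 untreated). The actin gene of smooth muscle, Acta2, changed by -1.53 ± 0.12 at 12 h and -2.37 ± 0.12 at 48 h (adjusted p = 2.66e-09 and 4.66e-13), and Pdgfra, the progenitor growth factor receptor, by -0.76 ± 0.11 at 6 h (adjusted p = 2.98e-05). Over the same times the mean level of the 6 adipocyte markers stayed between 11.36 and 11.68, and 3 of them rose at 24 h and none at 48 h. The part of these markers in the falls of the matrix protease genes was not tested.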

How the data were processed

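The authors deposited 1 table of log2 intensities, with a column per array and a row per probe set. Partek and RMA are named, without versions, per the submitters' processing notes. RMA corrects background, normalises between arrays and summarises probes. No genome build is given for the annotation in the sources used here. It named 1 gene for 21153 of 28815 probe sets, several for 1867 and none for 5795, and 21123 matched the reference gene table by Entrez identifier. The probe set with the highest mean was kept per gene (18781 genes), and 5 members had several.

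The 9 group means were estimated by lmFit and eBayes of limma 3.58.1 (R 4.3.3) from all 27 arrays without covariates, with two-sided tests and Benjamini-Hochberg adjustment over all genes of a comparison. Besides each time against untreated, 6 h was set against 2 h, and 24 h and 48 h against 6 h. Tables and plots used Python 3.11.15, pandas 2.3.3 and matplotlib 3.10.9. On simulated arrays with 100 genes changed by each size at 48 h among 18781 genes, 82% of changes of 0.5 and 100% of changes of 1 were called, with 7 false calls. The simulated noise was independent between genes and without shifts of whole arrays, and far fewer genes changed than were called at 48 h. Those rates need not hold for the real arrays. No pair of arrays was identical. Arrays give no count of molecules, so their number limits the precision (median SE of a member's change 0.095).

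The members and lists were chosen with earlier results of these data known. Every member with a mean of at least 5 is named; values on each array are given for those called with a change of at least 0.5, and for others where a sentence turns on them. From each list, the 4 genes with the smallest F-test p are named, beside any that complete a count, chosen after their values were seen. Results were recomputed with a replicate block, with low genes removed first, with probe sets of a gene averaged, with arrays centred on their median, after a further quantile normalization, with a trended robust variance, with the compared groups alone, and without each replicate. Leaving out single arrays was added after the results were seen.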

Additional observations from a re-analysis of the deposited data

How the results depend on the processing

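Of 57 calls of the 18 members against untreated, 40 were kept in all 16 alternatives run for each, and these belonged to 11 genes: Adamts1, Adamts5, Adamts10, Adamts15, Adamtsl4, Mmp11, Mmp14, Mmp19, Mmp23, Timp1 and Timp2. No call changed sign in them. Centring arrays on their median ended 10 of the calls, moved the median of all genes by at most 0.086 on the log2 scale, and turned the split of calls among all genes at 6 h from 1575 higher and 1536 lower to 2877 and 883. With that centring, 3 members differed between 6 h and 2 h, against 5 otherwise. Leaving out replicates or single arrays gave 4 to 7 members called at 6 h (7 otherwise; 4 without 6 h replicate 1) and 2 to 5 between 6 h and 2 h (2 without replicate 2 or without replicate 3 of every group, and 3 without 2 h replicate 2, 2 h replicate 3 or 6 h replicate 1). Among the other counts, these omissions gave 13 to 16 members called by the F-test and 2 to 3 at 2 h. At 12, 24, 36 and 48 h they gave 6 to 11, 10 to 13, 9 to 12 and 10 to 13. The alternatives that kept all arrays gave 13 to 17 by the F-test, 2 to 3 at 2 h and 5 to 8 at 6 h. At 12, 24, 36 and 48 h those gave 9 to 12, 10 to 13, 9 to 13 and 12 to 13. Replicate numbers were shared between groups, but arrays of 1 number did not deviate together (mean r = -0.122 over 108 pairs), and 0 arrays correlated best with their own number. With the replicate block, 2, 6, 9, 13, 10 and 13 members were called at the 6 times from 2 h to 48 h. Near the floor, signal over background limits what the arrays can show, and 29 of the 47 members lay there.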
